A study of Arabidopsis thaliana with 7 samples.

Results

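The genes described here are those of UV-B perception and of protection from light: the receptor UVR8, its ubiquitin ligase partners COP1 and SPA1, the repressors RUP1 and RUP2, the DNA photolyases UVR2 and UVR3, and the early light-induced protein genes ELIP1 and ELIP2. They were taken by locus identifier from a table of 21184 genes, in which 8 of the 9 have a value. The transcript level of UVR3 (AT3G15620) was not analysed here. The table comes from RNA sequencing of polyadenylated transcripts of whole Arabidopsis seedlings, harvested 5 days after germination. Both groups grew at 22 °C on agar medium with 2% sucrose under continuous light of about 100 µE, conditions described by the series as favouring flavonoid production; no UV-B treatment is named in the labels. The wild type Col-0 has 4 libraries (replicates 1 to 4). The mutant, tt4-11, a line that the labels give as null for chalcone synthase, has 3 (replicates 2 to 4). It is a single line, no second allele or rescued line is among the samples, and whole seedlings mix shoot and root, so that fewer cells of a type and less RNA per cell cannot be told apart.

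UV-B is absorbed by UVR8, a dimer that falls apart into monomers under UV-B and then binds COP1, which frees the transcription factor HY5 from COP1-dependent breakdown. HY5 switches on genes of flavonoid synthesis, photolyases, ELIPs and the repressors RUP1 and RUP2, which return UVR8 to the dimer. Flavonoids accumulate in the epidermis and act as a sunscreen, so the comparison asks whether seedlings that lack them show transcripts of a light-stress response.

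The libraries hold between 2021368 and 2205449 reads in the table. Levels are given as scaled reads, the authors' counts divided by a factor for each library, and a change is the difference of mean log2(scaled reads + 1), tt4-11 minus Col-0, with its standard error (SE); on that scale the change of a gene with few reads comes out too small. Values after ± are SDs over 4 Col-0 and 3 tt4-11 libraries. The test was limma across 13301 genes, two-sided with Benjamini-Hochberg adjustment, and a gene passed at an adjusted p of 0.05. Whether each replicate was a culture of its own is not in the labels, so a p-value covers no more than the spread among these libraries, which may be technical. TT4, the chalcone synthase gene, stood at 2464 to 3148 scaled reads in Col-0 and 54.9 to 96.7 in tt4-11, the direction that the labels give (change -5.34, SE 0.16; limma adjusted p = 2.99e-12). Of the markers of seedling tissue, those of the shoot (5 genes) summed to 11815 to 14228 scaled reads in Col-0 and 10892 to 13767 in tt4-11, and the 5 measured root markers to 11981 to 13247 and 9823 to 12955, so both tissues were present in every library. Single markers moved within these sums: LHCB3 rose (1.34; limma adjusted p = 1.80e-05) and PSAD1 fell (-0.40; limma adjusted p = 0.0242). PYK10 makes up most of the root sum, and the root hair genes COBL9 (-0.51) and EXPA7 (-0.87) were lower in every tt4-11 library than in any Col-0 library but did not pass (limma adjusted p = 0.207 and 0.0691).

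Of the 9 genes 7 had enough reads to be tested: 2 were higher in tt4-11 (SPA1 and ELIP1), 0 were lower, and 5 did not pass. Over all genes tested, 7.07% were called higher and 6.55% lower, 13.6% in either direction. At an unadjusted p of 0.05, 5 of the 7 lay under the threshold, where 3899 of all 13301 genes did. The median change of the 7 was 0.40, beside -0.01 over all genes tested. Groups did not overlap in 3 of them (SPA1 and COP1 higher, UVR8 lower in tt4-11), against 26.6% of all genes tested. An exact two-sided permutation test over the 35 splits of these libraries cannot go below 0.0571. Without tt4-11 replicate 2 or 3 only SPA1 was called, and without Col-0 replicate 1 ELIP2 was called as well, so that the number called higher ran from 1 to 3. For the 0 lower, 1 gene (UVR8) lay under an unadjusted p of 0.05 downward, and DESeq2, edgeR and limma-voom on the recovered reads each called 0.

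**Figure D1:**
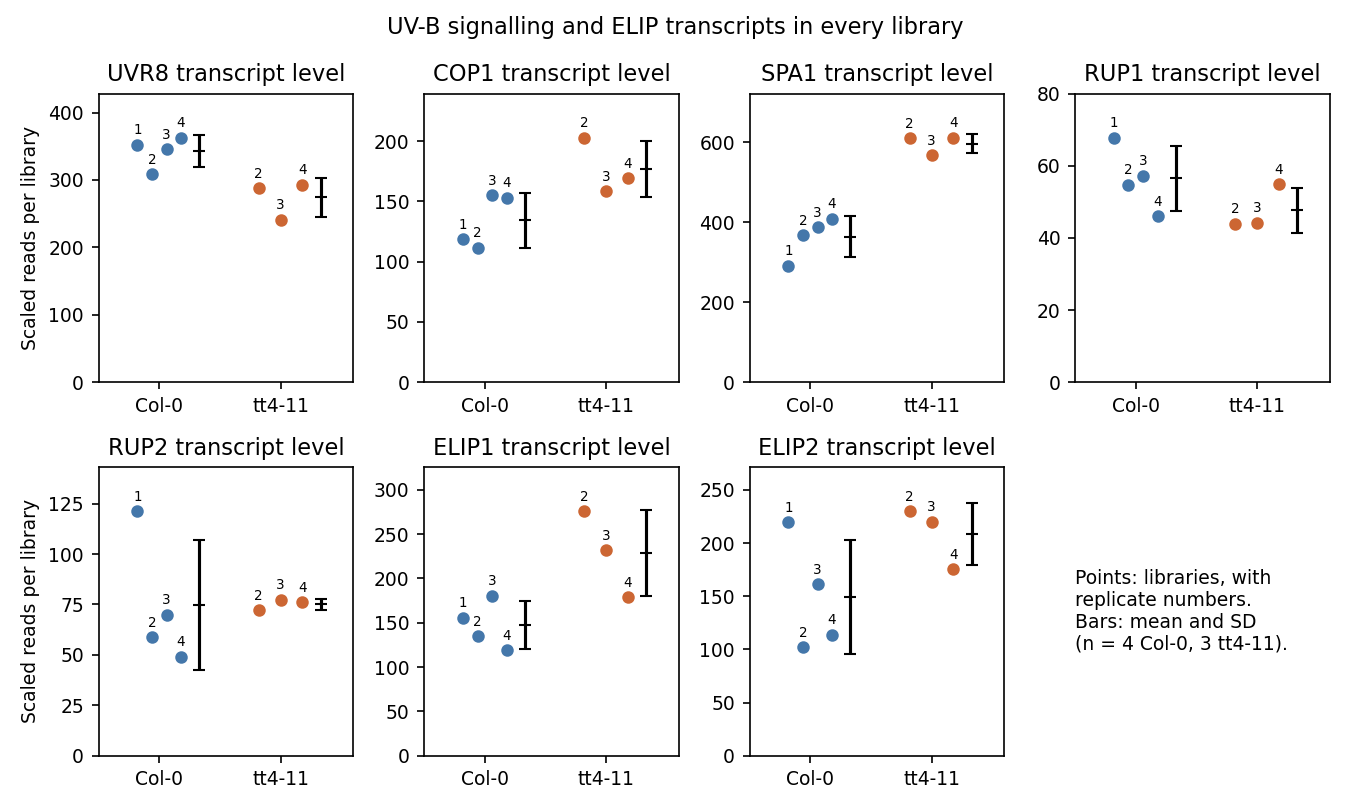
Scaled reads (vertical axes, starting at 0) of the 7 tested genes in each library of Col-0 (blue) and tt4-11 (orange), with replicate numbers; the bars are the mean and SD of 4 and 3 libraries. SPA1 lies at 291 to 409 in Col-0 and 568 to 612 in tt4-11, while RUP2 spans 49 to 121 in Col-0 and 72.1 to 77.3 in tt4-11.

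UVR8 (AT5G63860) encodes the UV-B receptor, a propeller-shaped protein that senses UV-B through its own tryptophans. In TAIR10.1, the build of all positions given here, UVR8 spans 25554416 to 25559499 of chromosome 5, minus strand, with 13 exons. UVR8 reached 352, 309, 345 and 363 scaled reads in Col-0 (replicates 1, 2, 3 and 4) and 288, 241 and 293 in tt4-11 (replicates 2, 3 and 4, an order kept below). The 3 tt4-11 libraries were all lower than the 4 Col-0 libraries. Mean levels of 342 ± 23.7 (SD, n = 4) and 274 ± 28.5 (SD, n = 3) gave a change of -0.32 (SE 0.11, 95% interval -0.56 to -0.09) that did not pass (limma adjusted p = 0.0653; exact two-sided permutation p = 0.0571). Under 22 alternative settings the adjusted p of UVR8 lay between 0.0546 and 0.278.

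COP1 (AT2G32950) encodes the RING E3 ubiquitin ligase that marks HY5 for breakdown in darkness and binds UVR8 under UV-B. It lies on chromosome 2 at 13977881 to 13983609, plus strand, with 13 exons. COP1 stood at 118, 111, 155 and 153 scaled reads in Col-0 and at 203, 158 and 169 in tt4-11. The groups did not overlap, but the lowest tt4-11 library lay close to the highest Col-0 library. The change was 0.40 (SE 0.15, 95% interval 0.09 to 0.71), which did not pass (limma adjusted p = 0.0818, and 0.0557 to 0.287 under the alternatives; exact two-sided permutation p = 0.0571).

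SPA1 (AT2G46340) encodes a kinase-like WD40 protein that works with COP1 in the ligase complex. It lies on chromosome 2 at 19022154 to 19027528, minus strand, with 8 exons. SPA1 reached 291, 367, 387 and 409 scaled reads in Col-0, and 610, 568 and 612 in tt4-11. All tt4-11 libraries stood well above all Col-0 libraries, and Col-0 replicate 1 was the lowest. SPA1 rose from 364 ± 51.2 (SD, n = 4) to 597 ± 24.7 (SD, n = 3), by 0.72 (SE 0.12, 1.65-fold; limma adjusted p = 0.00103). That change ranks 176 by p among the 13301 genes, and 8.39% of them changed by more in either direction. The call of SPA1 held under all 22 alternatives (change 0.51 to 0.78, adjusted p up to 0.00995), the least once a trend across genes of change with length was removed (the length trend); its transcript, at 3933 bases, is the longest of the 8.

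**Figure D2:**
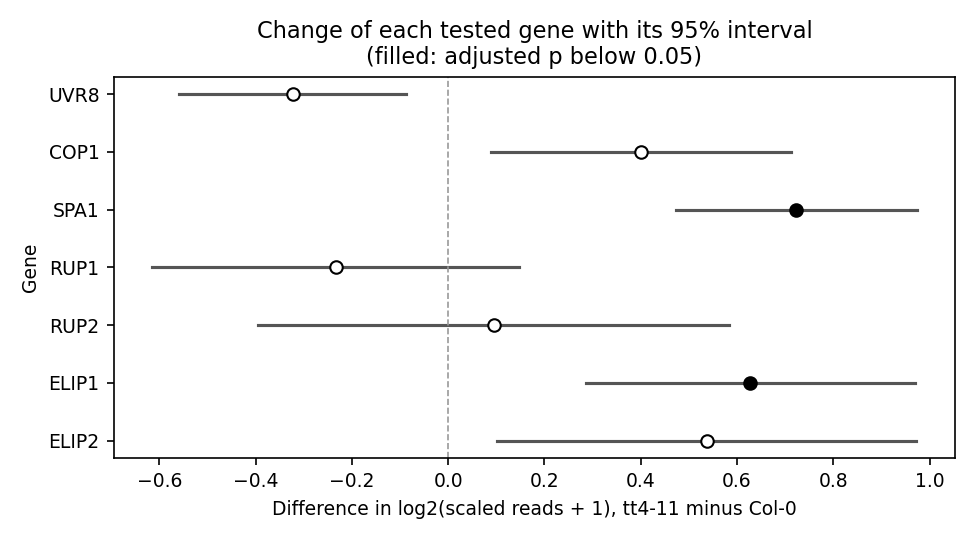
Difference in log2(scaled reads + 1), tt4-11 minus Col-0 (horizontal axis), of the 7 tested genes with 95% intervals from limma; filled points passed at an adjusted p of 0.05. SPA1 (0.72) and ELIP1 (0.63) are filled, and the intervals of RUP1 and RUP2 span 0.

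Other members of the SPA family and further partners of the receptor were taken from a list of 20 genes, of which 14 were tested. Of these 3 rose, 1 fell and 10 did not pass (median 0.30, beside -0.01 over all genes). Among all genes tested, 7.07% were called higher and 6.55% lower. SPA3, a close relative of SPA1, rose from 243 ± 8.72 (SD, n = 4) to 351 ± 18.6 (SD, n = 3), by 0.53 (SE 0.10; limma adjusted p = 0.00354). SPA2 gave 0.30 and did not pass (limma adjusted p = 0.113), and SPA4 had too few reads to be tested. BBX25, a B-box protein that weakens HY5 activity, rose from 118 ± 22.8 to 224 ± 4.61 (0.94, SE 0.14; limma adjusted p = 0.000531). MYB77, a regulator that ties auxin responses to UVR8, rose from 55.6 ± 9.88 to 154 ± 33.6 (1.45, SE 0.17; limma adjusted p = 6.36e-05). MYB13, which binds UVR8 and acts in flavonoid regulation, fell from 72.5 ± 12.4 to 45.0 ± 9.22 (-0.68, SE 0.19; limma adjusted p = 0.0236), a call lost without tt4-11 replicate 2 (0.0507) or replicate 4 (0.126) and with the length trend removed (0.0794). HY5 itself gave 0.15 (95% interval -0.24 to 0.53, limma adjusted p = 0.635), and its homologue HYH 0.54 (limma adjusted p = 0.151).

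In the COP/DET and COP9 signalosome list, whose products act with COP1 in repressing light responses, 7 of 8 genes were tested and 0 rose and 0 fell with limma, 0 lay under an unadjusted p of 0.05, and DESeq2, edgeR and limma-voom on the recovered reads each called 0 (median -0.01). Its lowest p-values belonged to subunits of the signalosome, CSN8 (-0.33, SE 0.17, limma adjusted p = 0.213) and CSN1 (-0.18, SE 0.13, limma adjusted p = 0.396). The shares that limma called over all genes tested were 7.07% higher and 6.55% lower.

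RUP1 and RUP2 are WD40 proteins that restore the UVR8 dimer, and their own transcripts are induced by UV-B through HY5. RUP1 (AT5G52250; chromosome 5, 21216772 to 21218351, plus strand, 1 exon) stood at 67.8, 54.8, 57.3 and 46 scaled reads in Col-0 and at 44.0, 44.2 and 54.9 in tt4-11. RUP2 (AT5G23730; chromosome 5, 8005097 to 8006630, plus strand, 1 exon) stood at 121, 58.6, 69.9 and 49 in Col-0 and at 72.1, 77.3 and 76.1 in tt4-11. In both genes the groups overlapped, and Col-0 replicate 1 was the highest library. The changes were -0.23 for RUP1 (SE 0.18, 95% interval -0.61 to 0.15; limma adjusted p = 0.417) and 0.09 for RUP2 (SE 0.23, 95% interval -0.39 to 0.58; limma adjusted p = 0.825), so neither passed and a rise of RUP2 above 0.58 lies outside its interval. Without Col-0 replicate 1 RUP2 gave 0.35 (SE 0.17; limma adjusted p = 0.177), so the bound of 0.58 holds only with that library included. Without Col-0 replicate 4 the change of RUP2 turned to -0.076.

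Ratios within a library were formed for 4 pairs, chosen after the values were seen, on the same log2 scale. COP1 relative to UVR8 was -1.35 ± 0.19 in the wild type and -0.63 ± 0.14 in the mutant, a difference of 0.72, with every tt4-11 library above every Col-0 library (exact two-sided permutation p = 0.0571, 0.229 adjusted over the 4 pairs). The differences for SPA1 to COP1 (0.32), RUP1 to RUP2 (-0.33) and ELIP1 to ELIP2 (0.09) came with overlapping groups (exact two-sided permutation p = 0.114, 0.229 and 0.857). None of the 4 passed after adjustment, and with these group sizes none could.

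UVR2 (AT1G12370, also PHR1) encodes the photolyase that repairs cyclobutane pyrimidine dimers with the energy of visible light, and UVR3 the one for 6-4 photoproducts. UVR2 lies on chromosome 1 at 4206360 to 4208999, minus strand. The table holds 1 transcript model of UVR2, with 1, 0, 0 and 1 reads in Col-0 and 2, 0 and 1 in tt4-11. With 2 reads in one group and 3 in the other, both no more than the 3 counts that a count of 0 leaves room for, no change could be detected at this depth. The RefSeq annotation gives UVR2 3 transcripts, and genes with 3 annotated transcripts had a median level of 7.76 scaled reads in the table, against 37.5 for genes with 1, so a low value of such a gene is not a measure of its expression.

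Among 23 other genes of DNA repair and damage signalling, 16 were tested: 2 rose, 0 fell and 14 did not pass (median 0.21). At an unadjusted p of 0.05 also 0 fell, and DESeq2, edgeR and limma-voom on the reads each called 0 lower. Over all genes tested, limma called 7.07% higher and 6.55% lower. CRY3, a cryptochrome of the DASH type with photolyase activity on single-stranded DNA, rose from 129 ± 10.3 (SD, n = 4) to 187 ± 7.5 (SD, n = 3), with every tt4-11 library (182 to 196) above every Col-0 library (115 to 138; change 0.54, SE 0.12; limma adjusted p = 0.00774). ATM, the kinase that signals DNA double-strand breaks, rose from 139 ± 23.9 to 220 ± 51.6 (0.65, SE 0.16; limma adjusted p = 0.0160). The call of ATM, a gene with a very long transcript, was lost without tt4-11 replicate 3 (0.0669) or 4 (0.105), and with the length trend removed its change was 0.23 (0.262). The excision repair genes UVH1, ERCC1, UVH3, DDB2 and CHR8 gave between -0.07 and 0.26, none of which passed.

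ELIP1 and ELIP2 encode relatives of the antenna proteins that sit in the thylakoid membrane, bind pigment and accumulate under strong light, UV-B and cold and during greening. ELIP1 (AT3G22840) lies on chromosome 3 at 8084405 to 8085669, minus strand, with 3 exons, and ELIP2 (AT4G14690) on chromosome 4 at 8418242 to 8419325, plus strand, with 3 exons. Their transcripts share no stretch of 50 or 100 bases, and the longest run in common is 26 bases, so reads of 100 bases can be told apart. ELIP1 stood at 156, 135, 181 and 119 scaled reads in the wild type and at 276, 232 and 179 in the mutant. The highest Col-0 library lay just above the lowest tt4-11 library, so the groups overlapped. ELIP1 rose from 147 ± 26.7 (SD, n = 4) to 229 ± 48.5 (SD, n = 3), by 0.63 (SE 0.16, 1.54-fold; limma adjusted p = 0.0176; exact two-sided permutation p = 0.114). The call of ELIP1 was lost without tt4-11 replicate 2 (change 0.48, adjusted p = 0.107) or replicate 3 (0.61, adjusted p = 0.0730).

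ELIP2 stood at 220, 102, 161 and 114 scaled reads in Col-0 and at 230, 220 and 175 in tt4-11. Col-0 replicate 1 reached the level of the tt4-11 libraries, and the others lay below all of them. The change of ELIP2 was 0.54 (SE 0.21, 95% interval 0.10 to 0.97), which did not pass (limma adjusted p = 0.0935). It passed without Col-0 replicate 1 (0.74, adjusted p = 0.00461) and with the length trend removed (0.72, adjusted p = 0.0380). The changes of both ELIP genes lay within each other's intervals, and the ratio between them differed by 0.09 between the groups, as given above.

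Seed transcripts followed ELIP1 in part. The summed level of 6 seed markers (storage proteins and oleosins) was 55.4, 142, 270 and 28 scaled reads in the wild type and 739, 546 and 142 in the mutant, in the same order of replicates. In both groups the library with the most ELIP1 had the largest seed sum and the library with the least ELIP1 the smallest. Between these, Col-0 replicate 1 had more ELIP1 than replicate 2 (156 against 135) but a smaller seed sum (55.4 against 142). For ELIP2 the match of highest and lowest libraries held in tt4-11, while in Col-0 its highest library, replicate 1, had a seed sum of 55.4. Of the seed markers 4 were tested and 4 rose in tt4-11 (limma adjusted p = 0.0217 to 0.0457), where 7.07% of all genes tested were called higher. In each of these 4 the groups overlapped (exact two-sided permutation p = 0.114 to 0.171). The other seed markers, the cruciferin genes CRA1 and CRU3, had at most 4.82 scaled reads in any library, and CRU3 was at 0 in all Col-0 libraries. The part of seed transcripts in the ELIP1 result was not tested.

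**Figure D3:**
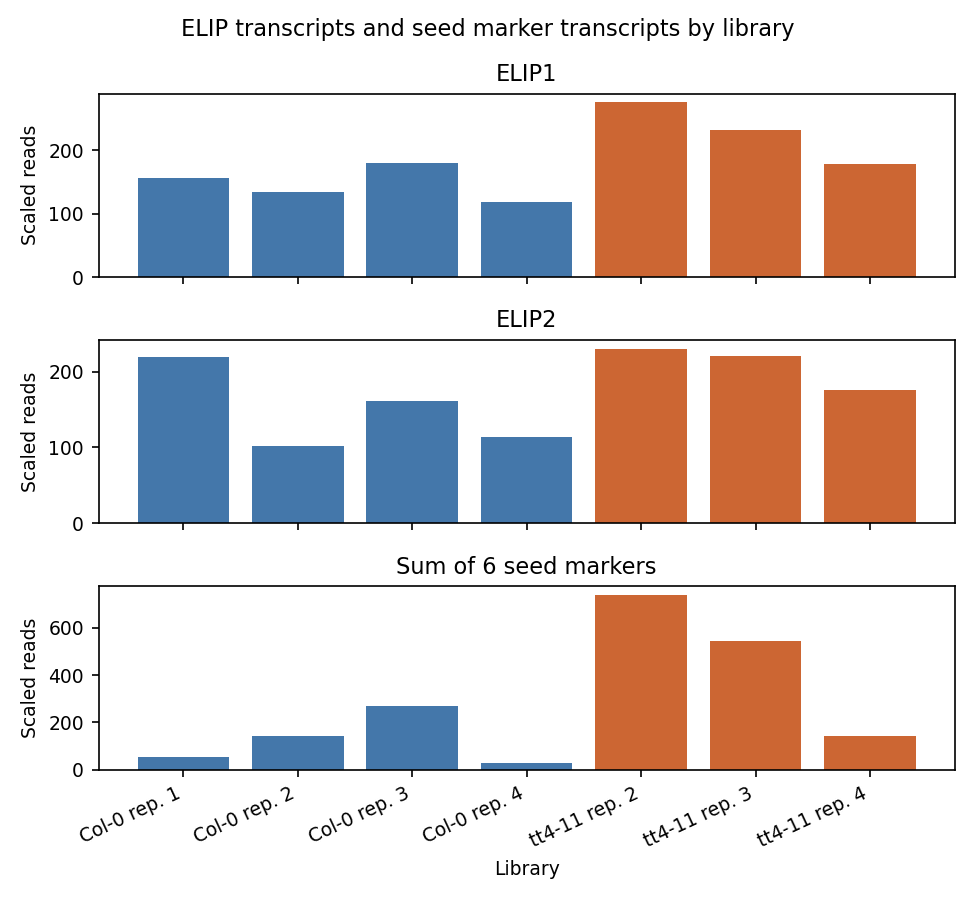
Scaled reads (vertical axes, starting at 0) of ELIP1, of ELIP2 and of the sum of 6 seed marker genes in each of the 7 libraries, Col-0 in blue and tt4-11 in orange. The seed sum runs from 28 to 270 in Col-0 and from 142 to 739 in tt4-11, and tt4-11 replicate 2 is highest in all panels.

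The promoters of the genes that rose, SPA1 and ELIP1, and of ELIP2 are shown because HY5 acts through ACGT-containing elements. Each is the stretch of 250 bases before the annotated start in RefSeq TAIR10.1, read 5′ to 3′ on the gene's strand (SPA1 chr2:19027529-19027778, minus strand; ELIP1 chr3:8085670-8085919, minus strand; ELIP2 chr4:8417992-8418241, plus strand). Capitals mark matches to CACGTG (the G-box), ACGTG, which every G-box contains, or AAATATCT (the evening element of clock-regulated promoters), searched on both strands.
SPA1: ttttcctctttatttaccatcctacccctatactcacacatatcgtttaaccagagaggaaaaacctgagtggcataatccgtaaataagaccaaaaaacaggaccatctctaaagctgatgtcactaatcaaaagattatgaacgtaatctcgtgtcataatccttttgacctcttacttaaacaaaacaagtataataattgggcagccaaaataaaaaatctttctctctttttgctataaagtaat
ELIP1: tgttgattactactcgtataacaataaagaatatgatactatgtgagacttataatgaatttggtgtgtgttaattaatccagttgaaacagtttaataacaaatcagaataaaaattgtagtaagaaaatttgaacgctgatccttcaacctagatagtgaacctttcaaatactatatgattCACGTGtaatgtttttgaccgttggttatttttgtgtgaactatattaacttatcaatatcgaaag
ELIP2: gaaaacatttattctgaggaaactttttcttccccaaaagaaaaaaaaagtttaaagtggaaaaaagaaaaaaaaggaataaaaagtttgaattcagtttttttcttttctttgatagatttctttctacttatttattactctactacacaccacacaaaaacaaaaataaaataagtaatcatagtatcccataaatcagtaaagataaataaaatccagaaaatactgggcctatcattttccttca

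The ELIP1 promoter holds 1 G-box, beginning 66 bases before the start, while the windows of ELIP2 and SPA1 hold no match to these motifs. ACGT alone was not searched for, and the SPA1 window does hold it, within aacgta. Over all 9 genes, G-boxes were found in 2 (ELIP1 and UVR2), ACGTG in 5 (these and COP1, RUP1 and UVR3) and the evening element in 0. In promoters of the same length of 27443 protein-coding genes, 6.49% held a G-box, 22.9% held ACGTG and 4.79% the evening element. A match describes letters in this window and no binding.

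Per kilobase of transcript, the levels in Col-0 ran from ELIP2 (164 ± 58.9 scaled reads per kilobase, SD, n = 4), UVR8 (155 ± 10.7) and ELIP1 (142 ± 25.8), through SPA1 (92.5 ± 13.0), COP1 (54.4 ± 9.22) and RUP2 (48.7 ± 21.0), to RUP1 (35.7 ± 5.68). The ranges of libraries overlapped between neighbours in that order, except between ELIP1 and SPA1 and between SPA1 and COP1. In tt4-11 the levels per kilobase were 229 ± 32.1 for ELIP2, 221 ± 46.9 for ELIP1, 152 ± 6.28 for SPA1, 124 ± 12.9 for UVR8, 71.5 ± 9.41 for COP1, 49.0 ± 1.80 for RUP2 and 30.2 ± 3.95 for RUP1 (SD, n = 3), where the ranges of ELIP2 and ELIP1 overlapped and those of the other neighbours did not. SPA1 thus stood below UVR8 in every Col-0 library and above it in every tt4-11 library on this scale. COP1 and SPA1 each have 2 annotated transcripts, of which the table holds 1, and reads of the other may be missing from their levels.

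Relatives of the ELIPs and other photoprotection genes moved in both directions: of 19 genes 17 were tested, 6 rose, 2 fell and 9 did not pass (median 0.26). The rises with the lowest p were in carotenoid hydroxylation and cyclic electron flow. BCH1, a beta-carotene hydroxylase that supplies xanthophylls, rose from 454 ± 91.9 (SD, n = 4) to 755 ± 19.0 (SD, n = 3), by 0.75 (SE 0.13; limma adjusted p = 0.0019). Its isoform BCH2 rose from 11.2 ± 1.68 to 37.7 ± 11.4 (1.64, SE 0.27; limma adjusted p = 0.00123). PGR5, needed for cyclic electron flow around photosystem I, rose from 96.2 ± 22.5 to 168 ± 8.59 (0.82, SE 0.17; limma adjusted p = 0.00448). LCNP, the plastid lipocalin of sustained quenching, fell from 174 ± 35.5 to 104 ± 2.46 (-0.71, SE 0.15; limma adjusted p = 0.00681). Without tt4-11 replicate 4 only 3 genes of this list rose, and without tt4-11 replicate 3 only 1 fell. With all libraries, 7.07% of all genes tested were called higher and 6.55% lower.

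Among the relatives of the ELIPs in that list, named after their values were seen, OHP1, a one-helix protein needed for photosystem assembly, rose by 0.48 (SE 0.12; limma adjusted p = 0.0158), a call lost without any 1 of the tt4-11 libraries (adjusted p up to 0.0616). LIL3:1, a light-harvesting-like protein of chlorophyll synthesis, fell by 0.51 (SE 0.11; limma adjusted p = 0.00774), and its call was lost without tt4-11 replicate 3 (0.0559). The stress-enhanced proteins SEP1 (0.23) and SEP2 (-0.13), OHP2 (-0.14) and LIL3:2 (0.11) did not pass.

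The list of genes known to be induced by UV-B, apart from the 9 main genes, holds 16, of which 14 were tested: 4 rose, 0 fell and 10 did not pass (median 0.39). At an unadjusted p of 0.05, and with DESeq2, edgeR or limma-voom on the reads, 0 fell as well. Over all genes tested, limma called 7.07% higher and 6.55% lower. CRY3, which rose, and HYH, which did not pass, also stand in lists above. SIG5, a plastid sigma factor that responds to blue light and stress, stood at 81.7 to 119 scaled reads in Col-0 and 202 to 245 in tt4-11 (1.23, SE 0.14; limma adjusted p = 5.32e-05). BBX32, a B-box protein that dampens light signalling, stood at 14.6 to 31.7 and 55.9 to 108 (1.61, SE 0.27; limma adjusted p = 0.00128). GPX7, a plastid glutathione peroxidase, stood at 3.88 to 10 and 19.7 to 27.6 (1.49, SE 0.34; limma adjusted p = 0.00962), a call lost without tt4-11 replicate 3 (0.0682); DESeq2 gave GPX7, with few reads, no adjusted p. The flavonoid genes of the list (MYB12, MYB111, FLS1, F3H and TT5) gave between -0.20 and 0.24 and did not pass.

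In the list of high light, singlet oxygen and hydrogen peroxide markers 9 of 15 genes were tested. Of these 5 rose, 1 fell and 3 did not pass (median 1.23). The shares over all genes tested were 7.07% higher and 6.55% lower. Those of the list that did not pass were the AAA-ATPase gene AT3G28580 (0.35), HSP101 (0.07) and CSD2 (-0.17). APX1, BAP1, SIB1 and PAP1 had too few reads to be tested, and APX2 and HSFA2 were not analysed. SIG5 and GPX7 are shared with the list above. WRKY40, a transcription factor of chloroplast and defence signalling, stood at 8.60 to 21.1 scaled reads in Col-0 and 75.5 to 101 in tt4-11 (2.60, SE 0.29; limma adjusted p = 2.70e-05). The zinc finger gene ZAT12 stood at 8.60 to 34.6 and 74.2 to 81.0 (1.91, SE 0.32), and ZAT10 at 13.4 to 95.2 and 147 to 186 (2.1, SE 0.44; limma adjusted p = 0.00599). The call of ZAT10 was lost with DESeq2 on the reads (change 1.75, adjusted p = 0.0798), which called 3 genes of the list higher and gave GPX7 no adjusted p. FSD1, an iron superoxide dismutase, fell by 1.03 (SE 0.31; limma adjusted p = 0.0348), and its call did not survive leaving out Col-0 replicate 1, Col-0 replicate 2, tt4-11 replicate 3 or tt4-11 replicate 4 (adjusted p up to 0.127).

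**Figure D4:**
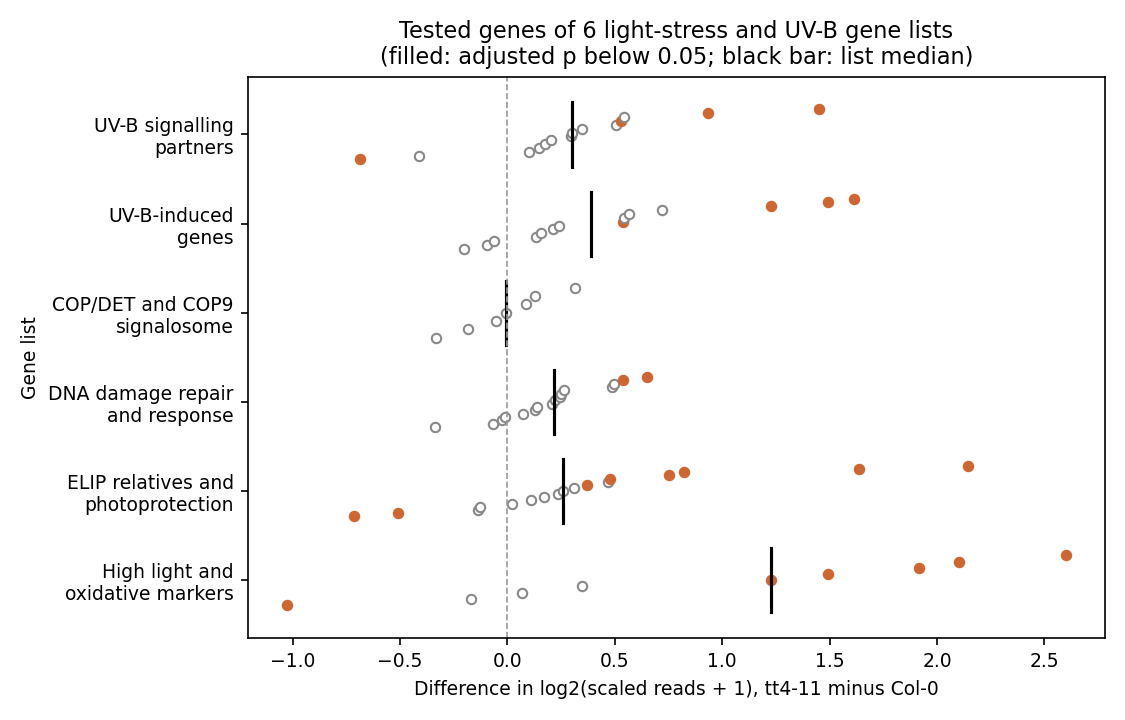
Difference in log2(scaled reads + 1), tt4-11 minus Col-0 (horizontal axis), of each tested gene in the 6 lists; filled points passed at an adjusted p of 0.05 in limma, and black bars are list medians. The medians run from -0.01 for the COP/DET and COP9 signalosome genes to 1.23 for the high light and oxidative markers.

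The genes whose pattern over the 7 libraries lay closest to a called gene, by root-mean-square distance between centred log2 values, were GLR1.1 (0.07), AT5G55860 (0.08) and SHY2 (0.08) for SPA1. For ELIP1 they were SD1-29 (0.11), AT4G00170 (0.11) and AT5G64850 (0.13). The median distance over all genes tested was 0.46 from SPA1 and 0.47 from ELIP1. The nearest genes were picked for the smallest distances, so their place below the median follows from that choice.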

How the data were processed

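Per the labels' protocols, polyA-enriched, stranded libraries were read as 100-base single reads. The submitters' processing notes name TopHat2, HISAT2, HTSeq and DESeq2; versions: not given in the sources used here, nor is the genome build. Of the 4 tt4-11 libraries that the labels name, 3 were analysed.

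The deposited table gives a value per transcript model. Col-0 replicate 4 is deposited as whole counts, and the other columns as a signal, counts scaled by the authors to that library; 100% of values were whole multiples of a step per column (tolerance 0.01), which gave back the reads. The authors' deposited log2 fold changes and p-values served as an alternative, and their score columns were not compared. Of 23052 rows 1 repeat was dropped. Models were summed per gene, a pseudocount of 1 added, and genes kept by filterByExpr (minimum count 10). limma 3.58.1 with its trend option compared the groups with no covariate. On the reads, edgeR 4.0.16 called 1855 genes, both called member genes among them, and DESeq2 1.42.0 and limma-voom were further alternatives. Positions and promoters come from RefSeq TAIR10.1, which may not be the authors' build; 21154 genes matched it by locus.

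The member genes and the 6 gene lists were chosen with earlier results of these data known. By rule the text names the member genes, TT4, up to 4 called genes per list in order of p and the 3 nearest patterns. In a list without a call the first 2 by p are named. Other genes are named to complete a family or a list.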

Additional observations from a re-analysis of the deposited data

Results flagged for a closer look

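Of 26 genes checked for a Col-0 library apart from the others, 1 was singled out; chance gives about 1 in 20. CSN1, a subunit of the COP9 signalosome, stood at 115 scaled reads in Col-0 replicate 2, and the gap to the next library was 0.86 of the range of the 4 Col-0 libraries.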

How the results depend on the processing

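TT4 and SPA1 kept direction and call under all 22 alternatives, and UVR8, COP1 and RUP1 kept direction and stayed uncalled. Not every alternative could have altered these outcomes. The threshold of 0.01 left each change as it was and could not call a gene that had failed the main test. Settings that altered only the gene filter or the choice of model gave these genes the same change as the main test. They bear on the adjusted p alone. RUP2 turned to -0.076 without Col-0 replicate 4. At an adjusted p of 0.01, 708 genes were called, 1 member gene was higher (ELIP1, at 0.63, was lost), and the counts became 1 higher for DNA repair, 0 lower for UV-B partners and 0 lower for high light markers. With the length trend removed ELIP2 passed (0.72), DNA repair had 1 higher, and UV-B partners and high light markers each had 0 lower. High light markers had 3 higher with DESeq2, which gave GPX7 no adjusted p, and 0 lower with limma-voom and in genes with 1 model in the table. Same-number correlations between the groups were 0.06, 0.02 and 0.06, and those of unlike numbers ran from -0.10 to 0.10. So few libraries cannot decide whether the replicate numbers pair them, and the replicate block is only a check. Only Col-0 has a replicate 1, so the block gave each member gene the same change as leaving that library out. With the block ELIP2 passed (0.74), UV-B partners had 0 lower and no other member gene changed its call.

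Leaving out each library in turn gave 896 to 1782 called genes and 1 to 3 member genes higher, 0 to 0 lower. Changes ranged over -0.37 to -0.23 (UVR8), 0.30 to 0.48 (COP1), 0.62 to 0.78 (SPA1), -0.34 to -0.14 (RUP1), -0.076 to 0.35 (RUP2), 0.48 to 0.79 (ELIP1), 0.38 to 0.74 (ELIP2) and -5.60 to -5.20 (TT4). Counts higher and lower were 3 to 3 and 0 to 1 for UV-B partners, 3 to 4 and 0 for UV-B-induced genes, 0 and 0 for COP/DET genes, 1 to 2 and 0 for DNA repair, 3 to 6 and 1 to 2 for photoprotection, and 4 to 5 and 0 to 1 for high light markers. The cause of these shifts was not tested.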
